A study of Mus musculus with 69 samples.

Results

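The transcriptome of p53-deficient cells was followed through 1 day of gastruloid growth, from 72 h to 96 h. All p53KO-emiRFP libraries at these 2 time points entered the comparison, which makes 6 of the 69 RNA-seq libraries of the series (3 at 72 h and 3 at 96 h), and no gene was selected beforehand. Counts were available for 55367 gene symbols, of which 32222 had at least 1 count in these 6 libraries and 21132 had enough counts over all libraries to be tested. Gastruloids are aggregates of mouse embryonic stem (mES) cells that elongate and form a head-to-tail axis in culture. Both groups came from mosaic gastruloids (WT+p53KO) that were seeded from 150 WT-mCherry cells and 25 p53KO-emiRFP cells of the E14tg2A line, given a ChIR pulse (a Wnt agonist) from 48 h to 72 h, and separated by flow cytometry. The p53KO-emiRFP cells carry a homozygous frameshift in Trp53 and a constitutive H2B-emiRFP670 nuclear reporter, and they are the progeny of 1 clone. The cells of both groups therefore share genotype, reporter, seeding and pulse. They differ in age, in the time since the pulse was washed out and in the make-up of the mosaic around them, since the share of p53KO-emiRFP cells is not constant over the course, and these cannot be told apart. As references, the same interval was read in 3 and 3 libraries of WT-emiRFP cells from WT+WT gastruloids (150 cells of each colour) and in 3 and 3 libraries of the WT-mCherry neighbours of the p53KO-emiRFP cells.

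In the mouse embryo, epiblast cells lose pluripotency as they pass through the primitive streak, a region set up by Wnt, Nodal and FGF signals. Cells that remain at the tail end form the caudal epiblast, which supplies the spinal cord and the presomitic mesoderm, and the latter is cut into somites under the control of an oscillating Notch clock and of opposing FGF and retinoic acid gradients. Hox genes are switched on in the order of their position in the clusters as the trunk extends. The transcription factor p53, encoded by Trp53, acts as a tumour suppressor that induces genes for cell-cycle arrest, DNA repair and apoptosis, and in early mouse development cells with less p53 activity can outcompete their neighbours.

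The 6 libraries held 48035718 to 66543495 counts, and no single gene took more than 1.448% of them. Libraries of the same time point correlated at 0.99369 or above and libraries of different time points at 0.97913 or below (Pearson's r of log2 values across genes, a description), so that no library stood apart. Trp53 (chr11:69580348-69591873, GRCm38.p6) checked the labels. Its normalised read count was 1684, 1916 and 1562 at 72 h and 1726, 1728 and 1712 at 96 h in the p53KO-emiRFP libraries. Both groups overlapped (log2 fold change -0.00045 ± 0.07 (SE), adjusted p = 1.0; edgeR quasi-likelihood test with Benjamini-Hochberg adjustment over all 21132 genes, as for every adjusted p below). These levels were 10.6% of those in the WT-mCherry neighbours at 72 h and 10.9% at 96 h. Strongly depleted p53 target genes in p53KO-emiRFP cells bound how much wild-type RNA a sorted library could hold. Ccng1 stood at 3.73% of the WT-mCherry level at 72 h and 4.85% at 96 h, and Eda2r at 0.896% and 1.49%. Purity after the sort was not measured by the study, and in bulk libraries fewer cells of a type and less RNA per cell cannot be told apart.

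Between 72 h and 96 h, 4730 genes rose (22.4% of the genes tested) and 4684 fell (22.2%) at an adjusted p below 0.05, while 11718 did not pass. The rises were larger than the falls. Among the called genes, 1754 rose and 733 fell at least 2-fold, and 345 rose against 30 that fell at least 8-fold, with a median log2 fold change of 0.74 for the genes that rose and -0.42 for those that fell. All 3 libraries of 96 h lay above all 3 of 72 h in 27.4% of the tested genes and below them in 27.8%. The genes with the largest rises were largely patterning genes of the posterior mesoderm and the largest falls included genes of the epiblast and the early primitive streak.

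The 12 strongest rises were taken from genes averaging 2 log2 CPM or more, and in each of them all 96 h libraries lay above all 72 h libraries. In this and the following paragraphs a value with ± alone in parentheses is a log2 fold change with its SE, and a pair of values joined by "to" gives the mean normalised counts at 72 h and at 96 h (n = 3 each). Msgn1, a transcription factor that specifies presomitic mesoderm, had low counts at 72 h and high counts at 96 h. Its counts were 92.7, 38.2 and 66.1 at 72 h and 4004, 5080.0 and 5536 at 96 h (6.24 ± 0.29, adjusted p = 1.5e-25). The T-box factor Tbx6, which directs cells to paraxial mesoderm instead of neural tissue, gave 94.9, 69.4 and 85.1 at 72 h and 4518, 5121 and 6313 at 96 h (6.01 ± 0.19, adjusted p = 9.8e-32). Hes7, the repressor that drives the segmentation clock, gave 38.6, 26.7 and 35.8 at 72 h and 2174, 1815 and 2812 at 96 h (6.08 ± 0.25, adjusted p = 5.0e-28). The 3 transcription factors thus went from under 100 normalised counts in every 72 h library to over 1000 in every 96 h library. Rspo3, a secreted amplifier of Wnt signalling, gave 199.7, 155 and 187 at 72 h and 5766, 5546 and 5881 at 96 h (5.0 ± 0.22). Fgf3, an FGF ligand of the tail bud, gave 49.7, 34.7 and 50.4 at 72 h and 2397, 2269 and 2803 at 96 h (5.81 ± 0.21). Cyp26a1, the enzyme that clears retinoic acid from the tail bud, gave 61.8, 50.7 and 40.3 at 72 h and 2141, 1652 and 2334 at 96 h (5.32 ± 0.25). For all 3 signalling genes the 72 h and 96 h libraries were well separated. The trunk Hox gene Hoxc8 gave 38.6, 42.7 and 21.3 at 72 h and 1906, 1184 and 2231 at 96 h (5.67 ± 0.32). Hoxaas3, an antisense transcript within the Hoxa cluster, rose by 5.66 ± 0.24, but its reads cannot be told apart from those of overlapping Hoxa genes because the strand setting of the counting is not given in the sources used here. Kif26b, a kinesin family member, rose by 6.21 ± 0.29, and Tmem132c, a transmembrane protein, by 5.48 ± 0.25. Sprr2a3, a small proline-rich protein gene, rose by 5.01 ± 0.31, and near-identical copies of it leave its count uncertain.

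**Figure D1:**
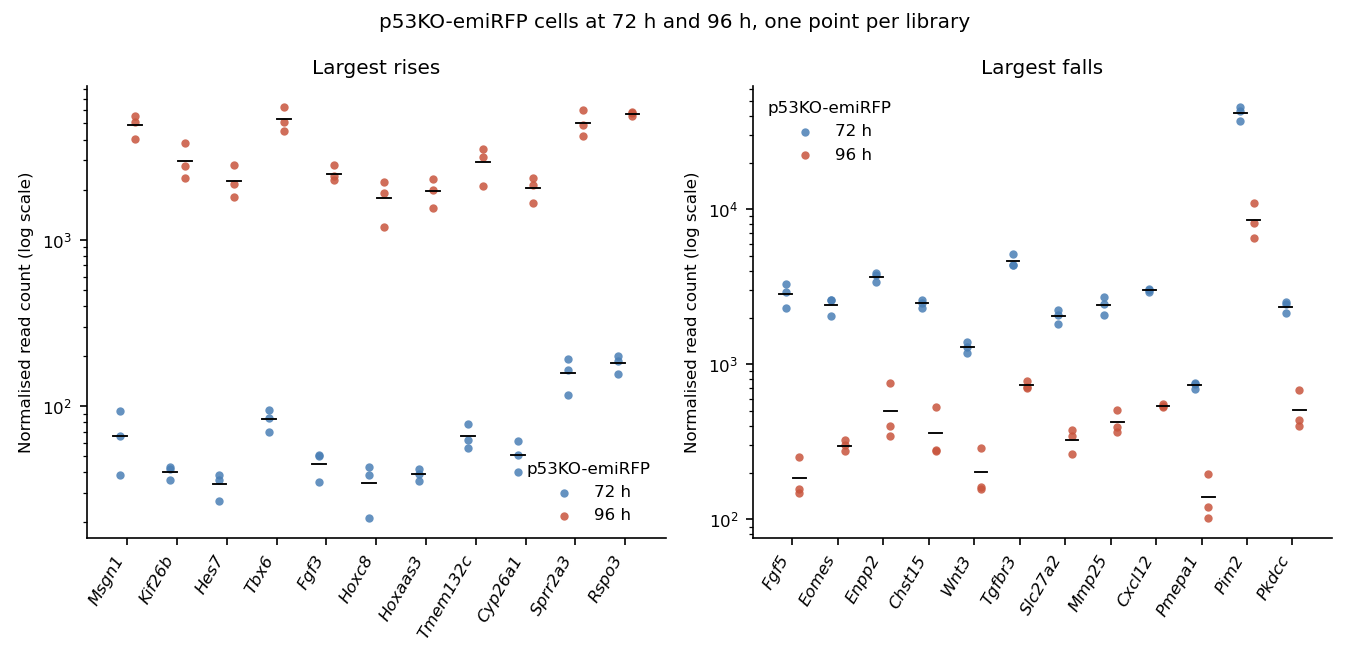
Normalised read counts (log scale) in each p53KO-emiRFP library at 72 h and 96 h for 11 of the 12 genes with the largest rises and the 12 with the largest falls; each point is 1 library. In all 23 genes shown the libraries of both time points do not overlap, with Msgn1 going from a mean of 65.7 to 4873 and Fgf5 from 2845 to 185.

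Promoters of these genes, from 250 bases before to 50 bases after the annotated start, were read from RefSeq (GRCm38.p6) to show the sequence upstream of the genes that moved furthest. A promoter was found for 17 of the 24 genes with the largest changes. Short words named after the factors known to bind them were searched on both strands: TCACACCT (T-box), CTTTGAT (TCF/LEF, the Wnt effectors), GTGGGAA (RBPJ, the Notch effector), ATTTGCAT (octamer, bound by POU factors) and AATCCACA (FOXH1, a Nodal effector). Of these 17 genes, 3 held the TCF/LEF word in a promoter (Msgn1, Cxcl12 and Pim2), 4 the RBPJ word (Msgn1, Hes7, Kif26b and Sprr2a3), 1 the octamer (Pim2), and 0 the T-box or FOXH1 word. Chst15 had more than 1 promoter, with no match, and the shares over all promoters count promoters and not genes. In all 32851 mouse promoters of this length the words occurred in 3.73%, 6.38%, 1.74%, 1.28% and 0.855% for TCF/LEF, RBPJ, octamer, T-box and FOXH1, respectively. A match is a description of letters and not of binding. The presomitic genes Msgn1 (chr12:11208899-11209198, - strand), Hes7 (chr11:69120203-69120502, + strand) and Tbx6 (chr7:126781233-126781532, + strand) and the epiblast gene Pim2 (chrX:7878056-7878355, + strand) are shown because they hold the matches discussed here or, for Tbx6, hold none. They are written 5′ to 3′ along the gene with each matched word in capitals, and words matched on the opposite strand appear as their reverse complement.
Msgn1: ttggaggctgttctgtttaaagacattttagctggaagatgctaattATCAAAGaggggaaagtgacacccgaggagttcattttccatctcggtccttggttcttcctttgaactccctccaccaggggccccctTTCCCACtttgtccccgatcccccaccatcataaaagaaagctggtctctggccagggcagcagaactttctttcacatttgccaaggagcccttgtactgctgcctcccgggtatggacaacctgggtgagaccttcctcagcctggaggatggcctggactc
Hes7: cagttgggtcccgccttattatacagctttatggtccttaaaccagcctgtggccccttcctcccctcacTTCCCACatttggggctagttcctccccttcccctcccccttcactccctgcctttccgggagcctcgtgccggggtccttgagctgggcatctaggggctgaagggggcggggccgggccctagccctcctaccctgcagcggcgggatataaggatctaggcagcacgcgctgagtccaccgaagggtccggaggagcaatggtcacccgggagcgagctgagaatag
Tbx6: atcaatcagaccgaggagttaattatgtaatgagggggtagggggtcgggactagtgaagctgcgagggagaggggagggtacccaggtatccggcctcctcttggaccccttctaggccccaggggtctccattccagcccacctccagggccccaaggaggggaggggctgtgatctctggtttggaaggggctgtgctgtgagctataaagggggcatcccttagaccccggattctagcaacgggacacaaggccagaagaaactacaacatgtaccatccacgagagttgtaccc
Pim2: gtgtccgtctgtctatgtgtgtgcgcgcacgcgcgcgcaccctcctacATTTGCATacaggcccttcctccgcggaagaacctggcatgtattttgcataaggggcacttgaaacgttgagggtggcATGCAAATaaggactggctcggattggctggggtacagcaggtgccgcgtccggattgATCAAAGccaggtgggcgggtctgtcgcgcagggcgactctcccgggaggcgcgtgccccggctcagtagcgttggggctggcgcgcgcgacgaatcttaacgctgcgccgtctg
In the Msgn1 promoter the TCF/LEF word starts 203 bases and the RBPJ word 114 bases before the start, and in the Hes7 promoter the RBPJ word starts 180 bases before it. Distances are from the RefSeq start that each promoter was read around, and for Hes7 the annotated span of the gene begins further upstream, so there the window lies inside that span. In the Pim2 promoter the octamer starts 202 and 123 bases and the TCF/LEF word 65 bases before the start.

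The 12 strongest falls were led by Fgf5, a growth factor that marks the post-implantation epiblast. Its normalised read count was 2929.7, 3286 and 2319.6 at 72 h and 156, 251 and 148 at 96 h, a log2 fold change of -3.96 ± 0.22 (adjusted p = 7.5e-22). Eomes, the T-box factor of anterior streak, endoderm and cardiac precursors, gave 2604, 2603 and 2061 at 72 h and 299.8, 324 and 275 at 96 h (-3.02 ± 0.16, adjusted p = 7.1e-23). Wnt3, the ligand that initiates the streak, gave 1290.0, 1401 and 1189 at 72 h and 158, 287 and 163 at 96 h (-2.69 ± 0.20, adjusted p = 4.6e-17). Their means fell 15.4-fold, 8.09-fold and 6.38-fold, respectively, and each kept at least 100 normalised counts in every 96 h library. Pim2, a serine/threonine kinase that promotes survival and growth, was far more abundant and gave 42804, 45932 and 36794 at 72 h and 8133, 10981 and 6572 at 96 h (-2.29 ± 0.19). Tgfbr3, the TGFβ co-receptor betaglycan, gave 4343, 4391 and 5111 at 72 h and 699, 717 and 785 at 96 h (-2.65 ± 0.10). Pmepa1, a feedback inhibitor of TGFβ signalling, gave 757, 744 and 696 at 72 h and 119.9, 197 and 103 at 96 h (-2.41 ± 0.16). Each of these 3 genes was lower in every 96 h library than in any 72 h library. The other falls were Enpp2, which encodes the lysophosphatidic acid-producing enzyme autotaxin (-2.89 ± 0.17), the sulfotransferase Chst15 (-2.78 ± 0.20), the fatty acid transporter Slc27a2 (-2.65 ± 0.13), the metalloproteinase Mmp25 (-2.52 ± 0.15), the chemokine Cxcl12 (-2.48 ± 0.22) and the secreted kinase Pkdcc (-2.22 ± 0.18).

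Gene lists of the lineages a gastruloid can form were then read against the background of 22.4% of genes higher and 22.2% lower at 96 h and a median log2 fold change of -0.01 over all tested genes. Genes of formative and primed pluripotency, the states of the post-implantation epiblast, were mostly lower. Of 12 members, 9 fell and 1 (Tead2) rose, with a median of -1.06. Beside Fgf5 and Pim2, the POU factor Pou3f1 went from 1126 ± 136 to 285 ± 42.6 normalised counts (mean ± SD, n = 3 per time point; log2 fold change -1.99 ± 0.18, adjusted p = 7.5e-14). Among 8 core pluripotency factors, 5 fell and 2 rose (median -0.84). Pou5f1, which encodes OCT4, went from 30162 ± 1584 to 12012 ± 1585 (-1.33 ± 0.13, adjusted p = 4.1e-13), and L1td1, an RNA-binding protein of pluripotent cells, from 31028 ± 387 to 8307 ± 848 (-1.90 ± 0.12). Sox2, which is shared by pluripotent and neural progenitors, moved the other way, from 3740.4 ± 277 to 5828 ± 625 (0.64 ± 0.08, adjusted p = 6.2e-09). Sall4 also rose, by 0.18 ± 0.07, and lost its call when any 1 of the 6 libraries but replicate 3 of 72 h was left out.

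Genes of naive pluripotency, the state of the preimplantation epiblast and of mES cells, did not move as a group (4 rose and 6 fell of 16, median -0.15). Nanog fell the most, with 10619.8, 11225 and 9838 at 72 h and 3245, 3313 and 2863 at 96 h (-1.75 ± 0.09, adjusted p = 1.5e-23), and Esrrb, a nuclear receptor of the same network, went from 3396 ± 185 to 2148 ± 164 (-0.66 ± 0.09). Tcl1 also fell (-0.54 ± 0.17), with adjusted p = 0.06 when replicate 1 was left out at both times. The members that rose included Fgf4, which is also made by the posterior streak, from 550.5 ± 45.8 to 4894 ± 250.4 (3.15 ± 0.14), Prdm14, also a germ cell regulator, from 29.4 ± 7.01 to 133 ± 12.7 (2.17 ± 0.17), and Klf5, from 2105 ± 282 to 3445 ± 230.1 (0.71 ± 0.13).

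**Figure D2:**
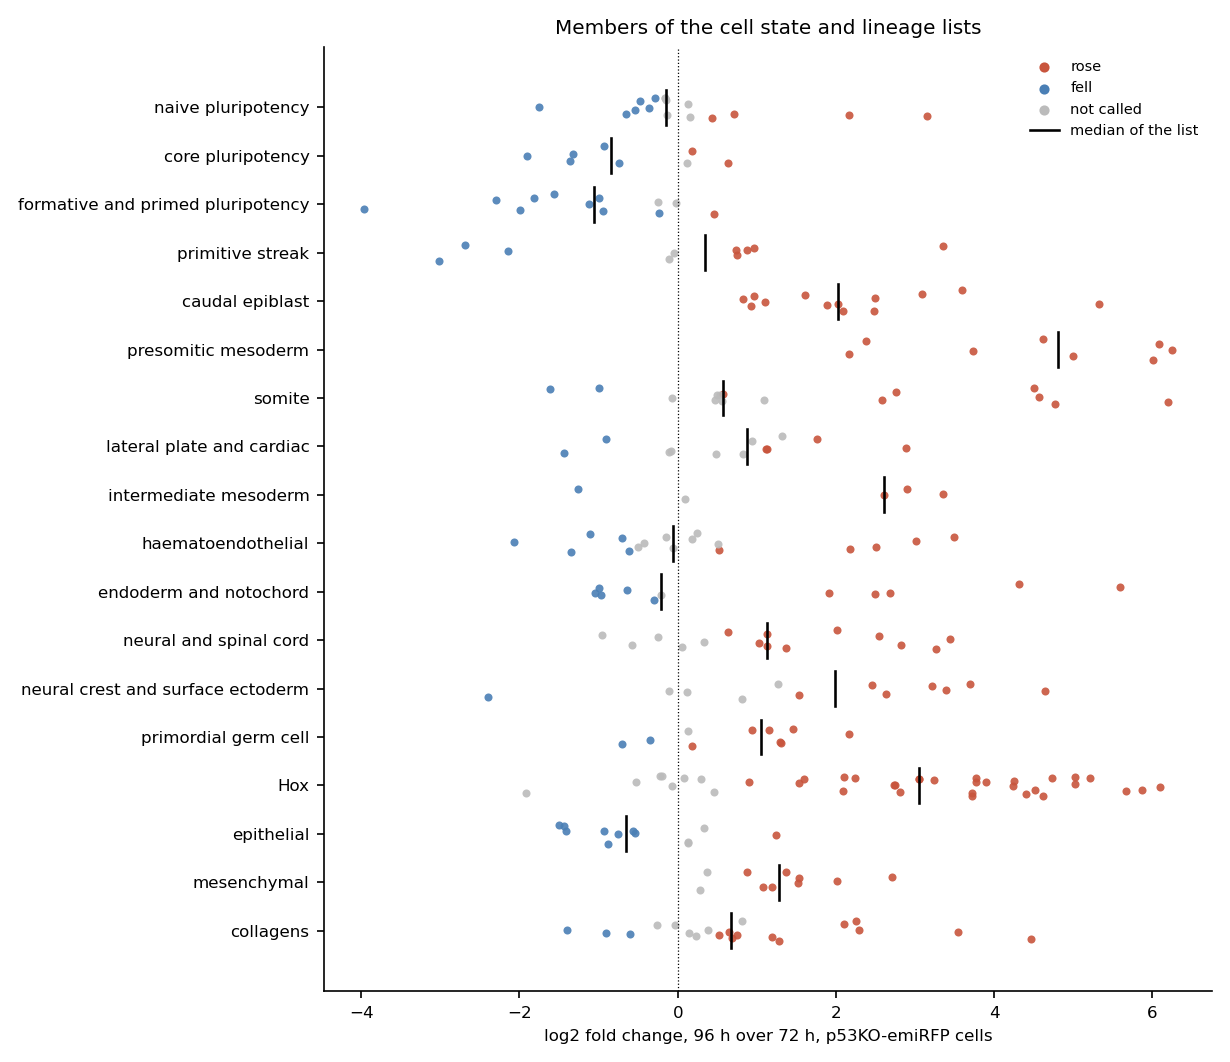
Log2 fold change from 72 h to 96 h in p53KO-emiRFP cells for every tested member of the pluripotency and lineage lists; each point is 1 gene, coloured by whether it passed the test, and the bar marks the list's median. All 8 presomitic and all 13 caudal epiblast genes lie above 0, while 9 of the 12 formative and primed pluripotency genes were called lower.

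Primitive streak genes went both ways, with 5 rises and 3 falls among 10 (median 0.35). Eomes, Wnt3 and Gsc, all of which mark early or anterior streak, fell. Gsc, a homeobox gene of the organiser, went from 165 ± 39.5 to 37.3 ± 8.24 (-2.15 ± 0.28, adjusted p = 3.2e-09). The rises were Lhx1 (115 to 1172, log2 fold change 3.35 ± 0.19), Fgf8 (0.97 ± 0.14), Snai1 (0.87 ± 0.20), Mesp1 and Evx1. T, which encodes brachyury and marks streak, tail bud and notochord, was singled out after its values were seen. Its counts were 44984, 40746 and 42829 at 72 h and 39280.0, 45780.3 and 39375 at 96 h, with overlapping groups (-0.05 ± 0.18, adjusted p = 0.86).

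Caudal epiblast and presomitic mesoderm genes rose without exception. All 13 caudal epiblast genes rose, with a median of 2.03, and all 8 presomitic genes rose, with a median of 4.81. In the caudal list, the homeobox gene Cdx4, an activator of posterior Hox genes, gave 275, 256 and 421 at 72 h and 3974, 2349 and 5065 at 96 h (3.59 ± 0.25, adjusted p = 8.5e-18). Wnt3a, the ligand that maintains tail bud progenitors, gave 1142, 904 and 1209.6 at 72 h and 8998, 9199.7 and 9420.1 at 96 h (3.09 ± 0.20, adjusted p = 1.8e-19). Fgf17, a tail bud ligand related to Fgf8, gave 341, 397 and 340.5 at 72 h and 1975, 1805 and 2329 at 96 h (2.50 ± 0.15). None of these ranges overlapped between the time points. In the presomitic list, besides Msgn1, Hes7, Tbx6 and Rspo3, the Notch ligand Dll1 gave 639, 569 and 541 at 72 h and 12947, 12268 and 17808 at 96 h (4.62 ± 0.18, adjusted p = 2.8e-29), and Lfng, the glycosyltransferase that tunes Notch receptors, gave 88.3, 96.04 and 89.6 at 72 h and 1028, 1102 and 1518 at 96 h (3.73 ± 0.20). Both were higher in every 96 h library than in any 72 h library.

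Of 15 somite genes, 7 rose and 2 fell (median 0.57). The rises were Meox1, Ripply2, Pax3, Tcf15, Foxc2 (2.45 to 184, log2 fold change 6.20 ± 0.60), Foxc1 (38.4 to 909.8, 4.57 ± 0.28) and Aldh1a2, the retinoic acid-producing enzyme, which gave 117, 92.5 and 99.7 at 72 h and 2304, 2825 and 3235 at 96 h (4.76 ± 0.20, adjusted p = 2.4e-27). Among the 6 members that did not pass, Myf5 and Uncx are given here after their values were seen. Mean normalised counts went from 19.99 to 19.5 for the muscle determination gene Myf5 (adjusted p = 0.90) and from 2.51 to 3.40 for Uncx, a marker of the posterior part of each somite (adjusted p = 0.75), neither of which passed. Pax1 and Ripply1 fell (-1.61 ± 0.53 and -0.99 ± 0.21) from means of 25.1 and 67.8, and Pax1 lost its call without replicate 1 or 2 (adjusted p = 0.06 and 0.08). In the lateral plate and cardiac list 4 of 12 rose and 2 fell (2 rises without replicate 1), led by Foxf1 (10.3 to 78.8, 2.89 ± 0.33). In the intermediate mesoderm list, the kidney precursor genes Lhx1, Pax2 (24.3 to 183, 2.89 ± 0.28) and Osr1 rose, Wt1 fell and Pax8 did not pass. Osr1 went from 2.01 to 12.6, with adjusted p = 0.06 without replicate 1.

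The Hox genes rose up to a limit along their clusters. Of 37 tested Hox genes, 29 rose and none fell. By paralogue group, numbered along the clusters, all 12 of groups 1 to 4 rose (median 2.93), as did all 15 of groups 5 to 9 (median 4.23), against 2 of 10 in groups 10 to 13 (median 0.01). Hoxd3 gave 2.21, 0.89 and 2.24 at 72 h and 121, 93.7 and 158 at 96 h (6.09 ± 0.43, adjusted p = 3.5e-17), Hoxc6 gave 13.2, 11.6 and 2.24 at 72 h and 499, 363 and 774 at 96 h (5.87 ± 0.39, adjusted p = 6.0e-19), and Hoxc8 is given above. All log2 fold changes above 5 lay in groups 3 to 8. In groups 10 to 13 the highest mean at 96 h was 105.9 normalised counts, and the 2 genes that rose were Hoxa10 and Hoxa11, named after their values were seen (0.91 ± 0.29 and 1.60 ± 0.64).

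Endoderm and notochord genes were split (5 rises and 5 falls of 11, median -0.21, with 2 falls when replicate 1 was left out). Noto, a homeobox gene of the node and notochord, gave 1.10, 4.45 and 3.36 at 72 h and 125, 216 and 123 at 96 h (5.59 ± 0.57, adjusted p = 5.7e-12). Shh, the morphogen made by notochord and floor plate, went from 0.30 ± 0.51 to 9.15 ± 2.69 (adjusted p = 0.0017), a call that was lost without replicate 1 (adjusted p = 0.05). In contrast Foxa2, a pioneer factor of both tissues, went from 522 ± 46.8 to 263 ± 61.3 (-0.99 ± 0.31, adjusted p = 0.0076), and lost its call without replicate 1 (adjusted p = 0.19). Neural and spinal cord genes rose in 10 of 15 cases with none falling (median 1.13), and 1 fell with no filter on low counts or with only these 2 groups in the fit. Hes5, a Notch-responsive repressor in neural progenitors, gave 5.52, 23.1 and 5.6 at 72 h and 98.4, 80.9 and 173 at 96 h (3.27 ± 0.43). Pax7, of the dorsal neural tube, went from 8.69 to 94.4 (3.44 ± 0.31). Both were higher at 96 h in every library. In the neural crest and surface ectoderm list 7 of 12 rose and 1 fell (median 1.99), among them Sox9 (36.5 to 476, 3.69 ± 0.18) and Dlx5 (13.8 to 147, 3.39 ± 0.27), whereas the epidermal regulator Trp63 fell from 14.7 to 2.79 (-2.39 ± 0.54).

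Genes that hold epithelial cells together were mostly lower and mesenchymal genes higher. In the epithelial list 8 of 12 fell and 1 rose (median -0.66; 2 rises under TMM scaling, with no filter on low counts, with the replicate block, with only these 2 groups in the fit and by DESeq2), and in the mesenchymal list 8 of 10 rose and none fell (median 1.28). Cdh2, N-cadherin, gave 1602, 1391 and 1522 at 72 h and 9219, 10002 and 10219.6 at 96 h (2.71 ± 0.16, adjusted p = 5.9e-21), while Cdh1, E-cadherin, singled out after its values were seen as its counterpart, gave 33986, 32740.5 and 34359.8 at 72 h and 20216, 21070.3 and 18874 at 96 h (-0.75 ± 0.10, adjusted p = 2.8e-09). N-cadherin was thus higher and E-cadherin lower in every 96 h library, and E-cadherin still kept over 10000 normalised counts. The tight junction genes Cldn7 (1309.8 to 463, -1.51 ± 0.18) and Cldn6 (3510.1 to 1322, -1.41 ± 0.19) and the polarity gene Crb3 (-1.44 ± 0.17) fell further than Cdh1. The keratin Krt8 rose (1222 to 2898, 1.24 ± 0.21). Zeb1, a repressor of epithelial genes, rose from 199.8 to 803 (2.01 ± 0.16). Among 20 collagens 11 rose and 3 fell (median 0.67), with Col13a1 (90.9 to 1996, 4.46 ± 0.16) and Col12a1 (17.4 to 202, 3.55 ± 0.28) at the top. The summed level of 6 fibroblast markers went from 506.9 to 591.4 at 72 h to between 2211 and 2383 at 96 h, and its part in the mesenchymal rises was not tested.

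Signalling genes were read by role. Of 19 Wnt ligands 11 rose and 3 fell (median 1.40). Wnt5a, which signals without β-catenin in the elongating tail, gave 356, 351 and 433 at 72 h and 3699, 3748 and 4353 at 96 h (3.37 ± 0.19, adjusted p = 4.6e-22), and Wnt8b went from 2.66 to 218 (6.26 ± 0.34). The falls were Wnt3, Wnt9b (74.9 to 14.6, -2.34 ± 0.30) and Wnt11 (401 to 57.2, -2.82 ± 0.29). Wnt targets and antagonists rose in 12 of 19 cases and fell in 5 (median 0.48), led by the antagonists Dkk4 (44.4 to 188, 2.10 ± 0.27), Sfrp1 (359 to 1199, 1.74 ± 0.12) and Dkk1 (166 to 513, 1.62 ± 0.27). The feedback gene Axin2, named after its values were seen as the usual reporter of β-catenin activity, gave 8352, 8073 and 8325 at 72 h and 9158, 9123 and 10885 at 96 h (0.24 ± 0.07, adjusted p = 0.0046). All of its 96 h libraries lay above those of 72 h.

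FGF ligands and receptors all passed the test (9 rose and 3 fell of 12, median 1.35). Besides Fgf3, Fgf4 and Fgf17, Fgf8, the ligand that drives cells out of the streak, gave 4217, 3780.2 and 3666 at 72 h and 7498, 7616 and 7725 at 96 h (0.97 ± 0.14, adjusted p = 9.5e-08). The receptor Fgfr2 fell from 504 to 244 (-1.04 ± 0.09), and Fgfr4 also fell (-0.75 ± 0.27) but lost its call without replicate 1 or 2 (adjusted p = 0.06 and 0.16). ERK feedback genes, which respond to FGF, went both ways (6 rose and 3 fell of 11, median 0.38). Spry4 (2510.5 to 6695, 1.42 ± 0.12), Etv4 (6269 to 14741, 1.23 ± 0.07) and Dusp4 (5576 to 11931, 1.10 ± 0.09) rose, and the related Etv5 (-0.36 ± 0.06) and Etv1 (-0.57 ± 0.12) fell.

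Nodal pathway genes were lower in 7 and higher in 4 of 14 cases (median -0.19). The ligand Nodal gave 4576, 4439 and 3925 at 72 h and 1149.9, 1441 and 1136 at 96 h (-1.80 ± 0.13, adjusted p = 1.5e-17), its co-receptor Tdgf1 went from 6815 ± 864 to 2654 ± 198 (-1.36 ± 0.13), and the inhibitory Smad7 from 1167 ± 126 to 453 ± 26.3 (-1.37 ± 0.11). Ligand, co-receptor and inhibitor were each lower in every 96 h library. The receptor gene Acvr2b (0.52 ± 0.11) and the effector Smad2 (0.22 ± 0.06) rose slightly, and the secreted antagonist Lefty2 rose from 1540.0 ± 55.3 to 2894 ± 540.3 (0.91 ± 0.15). In the BMP list 7 of 16 rose and 1 fell (median 0.33), with the targets Id1 (255 to 1302, 2.35 ± 0.20) and Msx1 (289 to 2421, 3.06 ± 0.19) and the antagonist Nog (11.9 to 76.05, 2.69 ± 0.27) as the largest rises. The fall was that of the antagonist Grem1 (-1.59 ± 0.54), which was lost when replicate 1 or 3 was left out (adjusted p = 0.11 and 0.09).

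In the Notch list 10 of 16 rose and 2 fell (median 1.78). Of these rises, Hes7, Dll1, Lfng, Nrarp and Dll3 are also members of the presomitic list and Hes5 of the neural list, and they are counted in both. The falls were the receptor Notch2 (-0.34 ± 0.10, adjusted p = 0.07 without replicate 3 of 72 h) and the ligand Jag2 (-0.76 ± 0.12). In the retinoic acid list 10 of 14 rose (median 1.90), including both the synthesising enzyme Aldh1a2 and the degrading enzymes Cyp26a1 and Cyp26c1 (3.20 to 44.7, 3.81 ± 0.38). Crabp1, a cytoplasmic retinoic acid-binding protein, went from 399 ± 80.6 to 1585 ± 273 (1.99 ± 0.17). The only fall was Rdh10, which oxidises retinol (-0.24 ± 0.08), and it was lost without replicate 1 or 3 (adjusted p = 0.10 and 0.20) and with no filter on low counts (adjusted p = 0.10).

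**Figure D3:**
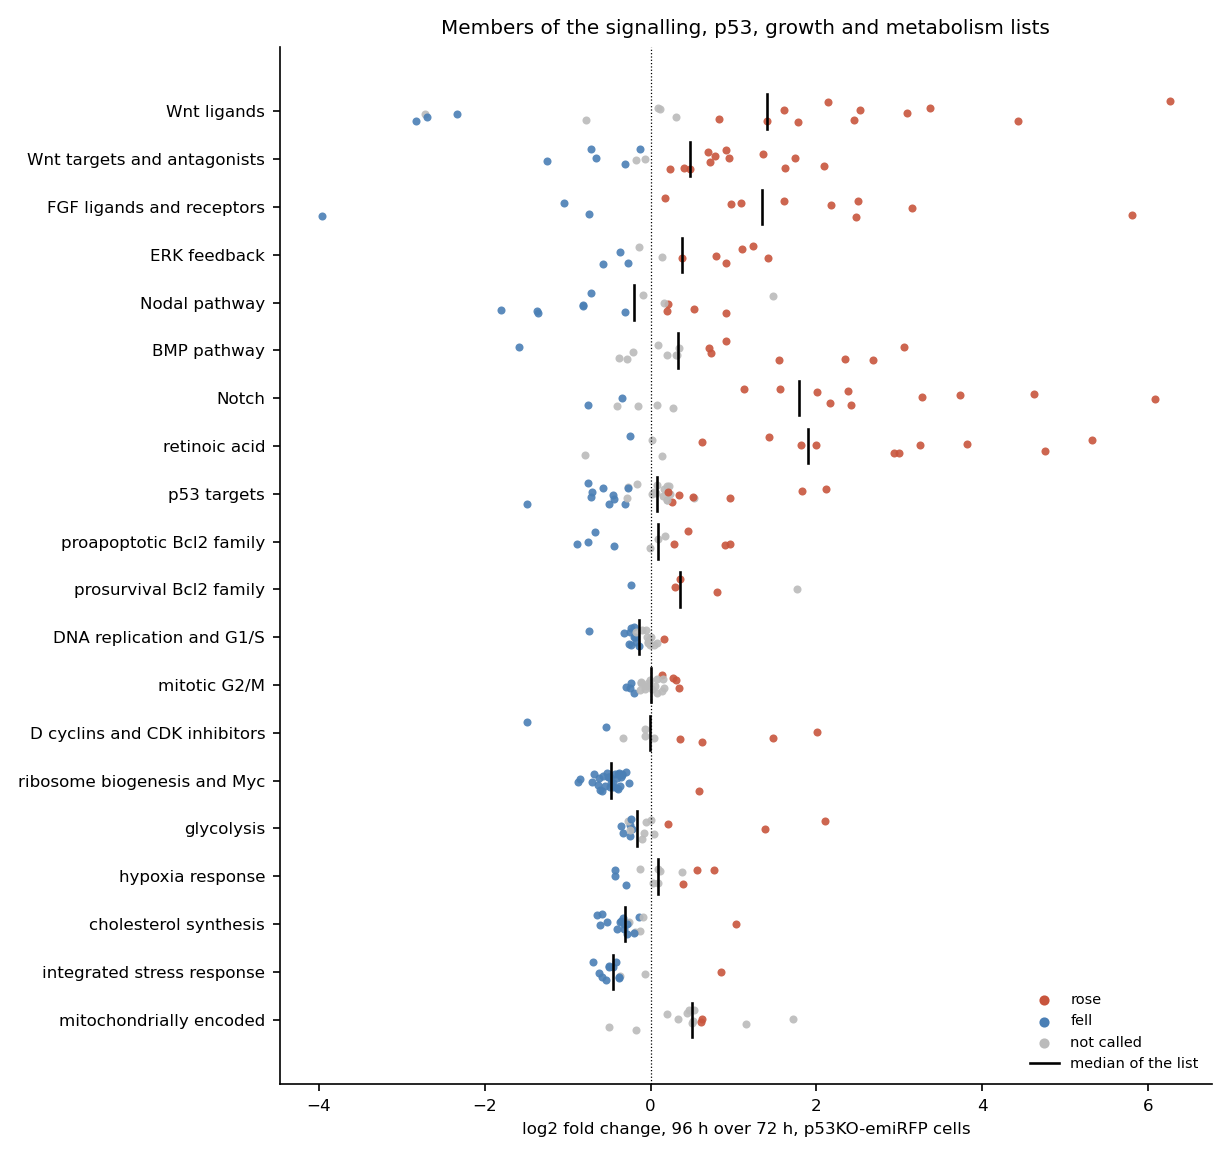
Log2 fold change from 72 h to 96 h in p53KO-emiRFP cells for every tested member of the signalling, p53, growth and metabolism lists; each point is 1 gene, coloured by whether it passed the test, and the bar marks the list's median. The members of the ribosome biogenesis and Myc list cluster just below 0, with 30 of 31 called lower, whereas Notch and retinoic acid members reach log2 fold changes of 6.08 and 5.32.

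Transcripts of known p53 target genes did not move in a single direction in the cells that lack p53. Of 32 tested, 7 rose and 10 fell (median 0.07), and with only these 2 groups in the fit 11 rose. Phlda3, an inhibitor of AKT, gave 152, 142 and 159 at 72 h and 655, 549 and 748 at 96 h (2.11 ± 0.20, adjusted p = 1.4e-13), and it climbed from 3.12% to 15.2% of the level in WT-mCherry neighbours. Btg2, an antiproliferative gene, gave 257, 353 and 212 at 72 h and 835, 937 and 1171 at 96 h (1.83 ± 0.15, adjusted p = 3.3e-15). Bbc3, which encodes the proapoptotic protein PUMA, gave 339, 365 and 309 at 72 h and 607, 689.8 and 672 at 96 h (0.95 ± 0.17, adjusted p = 2.8e-06). In each of these genes every 96 h library was above every 72 h library. Cdkn1a, the cell-cycle inhibitor p21, went the opposite way, with 6485, 5817 and 6102 at 72 h and 2259, 2463 and 1825 at 96 h (-1.49 ± 0.12, adjusted p = 2.1e-16). The proapoptotic Pmaip1 (NOXA) fell from 7393 ± 60.9 to 4381 ± 290.5 (-0.75 ± 0.11), and Gdf15, a stress-induced cytokine, had a change of -0.72 ± 0.30 and lost its call without replicate 1 or 2 (adjusted p = 0.28 and 0.10). Mdm2, the ubiquitin ligase that degrades p53, gave 2681, 2611 and 2491 at 72 h and 2667, 2530.4 and 2686 at 96 h, a change that did not pass (0.02 ± 0.08, adjusted p = 0.88).

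Among 11 proapoptotic members of the Bcl2 family 4 rose and 4 fell (median 0.09). Bmf rose from 944 to 1754 (0.89 ± 0.08) and Bcl2l11 (BIM) from 1613 to 2207 (0.45 ± 0.07), while Hrk fell from 426 to 230.2 (-0.89 ± 0.20) and Bok from 1365 to 859.5 (-0.67 ± 0.13). Of 5 prosurvival members 3 rose, namely Bcl2 (256 to 446, 0.80 ± 0.16), Bcl2l1 (0.36 ± 0.06) and Bcl2l2 (0.30 ± 0.06). Mcl1 fell (-0.23 ± 0.07), with adjusted p = 0.08 without replicate 2.

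Genes for ribosome production fell nearly throughout. Of 31 genes for ribosome biogenesis and the Myc factors that drive it, 30 fell, by small amounts (median -0.48), and 1 rose. Myc gave 3152, 3368 and 3092 at 72 h and 1725, 1781 and 1810.2 at 96 h (-0.85 ± 0.10, adjusted p = 7.1e-11), whereas its paralogue Mycn gave 5707, 5277 and 5012 at 72 h and 7580.2, 8106 and 8240.3 at 96 h (0.58 ± 0.08, adjusted p = 1.1e-08). The nucleolar helicase Ddx21 went from 45633 ± 1065 to 24944 ± 984 (-0.87 ± 0.06, adjusted p = 3.1e-19) and Heatr1, a factor for ribosomal RNA transcription, from 18104 ± 976 to 11117 ± 361 (-0.70 ± 0.08). Apart from the 2 Myc genes, which moved in opposite directions, the changes in this list lay between -0.87 and -0.26.

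In the DNA replication list 11 of 23 fell and 1 rose (median -0.14), and the number of falls dropped to 5 without replicate 2 and to 7 without replicate 3 of 96 h. The rise was E2f1, a factor that drives entry into S phase (0.17 ± 0.06, adjusted p = 0.023), and it lost its call with no filter on low counts, without replicate 2 or 3, and without replicate 3 of 72 h or replicate 2 of 96 h (adjusted p = 0.096 to 0.17). Ccne1, cyclin E1, fell from 10148 ± 554 to 6080.2 ± 153 (-0.74 ± 0.08, adjusted p = 5.2e-11), and the helicase subunit Mcm3 from 34655 ± 846 to 27869 ± 875 (-0.31 ± 0.04). Mitotic genes rose in 4 and fell in 4 of 22 cases (median 0.00; 2 falls without replicate 2), all within -0.30 (Ccna2) and 0.35 (Ccnb2). Regulators of the G1 phase also went both ways (4 rises and 2 falls of 10, 1 fall without replicate 2, median -0.01). Ccnd2, a cyclin of mesodermal and neural progenitors, gave 2846, 3202 and 3449.7 at 72 h and 12433, 12947 and 12847 at 96 h (2.01 ± 0.15, adjusted p = 2.6e-17), and the inhibitor Cdkn1c (p57) went from 786 to 2193 (1.48 ± 0.13).

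Of 20 genes of cholesterol synthesis 15 fell and 1 rose (median -0.30). Lss (14169 to 9089, -0.64 ± 0.06) and Pmvk (3258 to 2176, -0.58 ± 0.08) were among the falls, and the exception was Hsd17b7 (1924 to 3921, 1.03 ± 0.09). Of 13 genes of the integrated stress response 10 fell (median -0.45), including the pseudokinase Trib3 (2615 to 1700.4, -0.62 ± 0.15) and the cystine transporter Slc7a11 (818 to 544, -0.59 ± 0.15), and only Ddit4, an inhibitor of mTOR signalling, rose (9929.7 to 17934, 0.85 ± 0.14). In glycolysis, 3 of 16 rose and 6 fell (median -0.17), and the rises were the glucose transporters Slc2a1 (12771 to 55036, 2.11 ± 0.09) and Slc2a3 (26332 to 68414, 1.38 ± 0.10) and the enzyme Pfkl (0.21 ± 0.07, adjusted p = 0.14 without replicate 2). Genes induced by hypoxia rose in 3 and fell in 3 of 12 cases (median 0.09).

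The interval was then compared with that of WT-emiRFP cells from WT+WT gastruloids, in which 41.52% of genes changed. A gene was called when the log2 fold change of p53KO-emiRFP cells minus that of WT-emiRFP cells passed the test. The difference was positive for 1166 genes (5.52%) and negative for 1167 (5.52%), and with replicate number as a block the negative count was 1805. Leaving out 1 replicate number at a time gave 425 to 639 positive and between 404 and 664 negative differences. In these groups, genotype, the number of seeded cells and the genotype of the neighbours cannot be told apart. A difference between changes can arise at either time, so levels at both times are given beside the differences.

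Among genes averaging 2 log2 CPM or more, the largest positive differences comprised Phlda3, Parp10, Trp53i11, Azin2, Gnal and CT010467.2. Phlda3 went from 151 ± 8.43 to 651 ± 99.3 in p53KO-emiRFP and from 5827 ± 628 to 5417 ± 570.4 in WT-emiRFP cells, a difference of 2.22 ± 0.25 (adjusted p = 5.3e-09). Trp53i11, a p53-inducible gene, went from 782 ± 112 to 4029 ± 520.5 and from 1952 ± 138 to 3021 ± 554, respectively (1.73 ± 0.18, adjusted p = 6.5e-10). Parp10, an ADP-ribosyltransferase, went from 263 ± 17.8 to 1366 ± 244 and from 756 ± 117 to 1013 ± 239.9 (1.95 ± 0.22). In all 3 genes p53KO-emiRFP cells started lower than WT-emiRFP cells at 72 h. Azin2, an antizyme inhibitor, went from 186 ± 7.18 to 516 ± 85.9 and from 1274 ± 34.7 to 1082 ± 77.2 (1.71 ± 0.16). Gnal, a G protein subunit, went from 60.8 ± 5.66 to 841 ± 284 and from 199 ± 31.7 to 847 ± 337 (1.71 ± 0.36), with adjusted p = 0.07 without replicate 1. CT010467.2 went from 451 ± 79.6 to 424 ± 22.5 and from 1253 ± 1263 to 377 ± 99.2. Its difference (1.65 ± 0.51) was 0.45 without replicate 3 (adjusted p = 0.67).

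Under the same limit of level, the largest negative differences were Aldh1a2, Hoxd9, Hoxc8, Pcdh19, Crabp1 and Hoxa9. Aldh1a2 went from 103 ± 12.6 to 2788 ± 467 in p53KO-emiRFP and from 50.8 ± 10.7 to 9762 ± 603 in WT-emiRFP cells (-2.83 ± 0.32, adjusted p = 5.3e-09). Here p53KO-emiRFP cells were above WT-emiRFP cells at 72 h and below them at 96 h. The cell adhesion gene Pcdh19 did likewise, from 281 ± 23.9 to 2120.3 ± 666 and from 204 ± 27.7 to 7098 ± 2063 (-2.20 ± 0.31, adjusted p = 1.2e-06), as did Crabp1, from 399 ± 80.6 to 1585 ± 273 and from 233 ± 45.7 to 4041 ± 550.4 (-2.12 ± 0.25, adjusted p = 1.1e-08). The Hox genes differed in another way. Hoxc8 went from 34.2 ± 11.4 to 1774 ± 536 and from 7.07 ± 5.59 to 2024 ± 629 (-2.48 ± 0.73), and Hoxa9 from 80.4 ± 11.2 to 670.1 ± 216 and from 14.5 ± 15.03 to 484 ± 189 (-1.98 ± 0.63), so that their difference lay mostly in a higher level at 72 h. Both lost their call without replicate 1 (adjusted p = 0.16 and 0.29) or replicate 2 (0.18 and 0.17). Hoxd9 went from 62.2 ± 8.86 to 933 ± 231 and from 13.9 ± 6.81 to 1218 ± 398 (-2.57 ± 0.55, adjusted p = 7.4e-04).

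**Figure D4:**
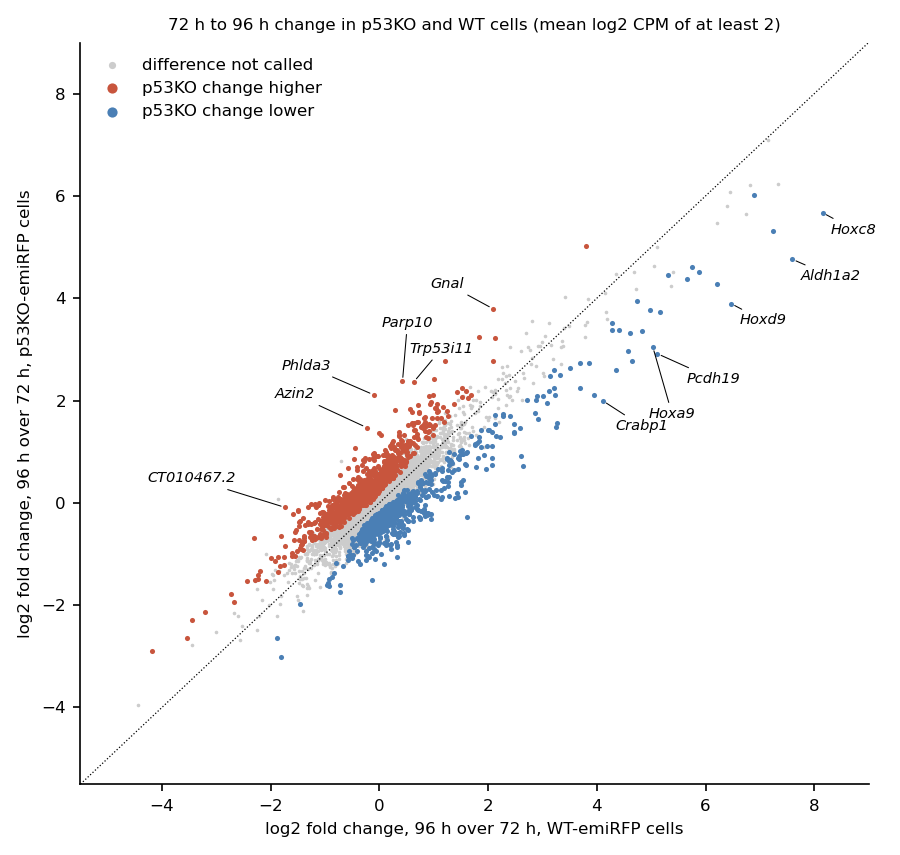
Log2 fold change from 72 h to 96 h in WT-emiRFP cells of WT+WT gastruloids (x axis) against that in p53KO-emiRFP cells of WT+p53KO gastruloids (y axis); each point is 1 tested gene averaging 2 log2 CPM or more, genes whose changes differed at adjusted p below 0.05 are coloured, and the line marks equal changes. Aldh1a2 lies below the line (7.59 in WT-emiRFP, 4.76 in p53KO-emiRFP) and Phlda3 above it (-0.11 and 2.11).

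Several lists held many genes whose changes differed. These counts are set beside the levels, for which all p53KO-emiRFP libraries lay above all WT-emiRFP libraries in 18.4% of tested genes at 72 h and 15.2% at 96 h, and below them in 19.0% and 19.5%. Naive pluripotency genes had a lower change in 12 of 16 cases (9, 9 and 11 without replicate 1, 2 and 3), and in every library 11 of these 12 were lower in p53KO-emiRFP cells than in WT-emiRFP cells at 96 h. At 72 h, 6 of the 12 were already lower and 2 were higher in every library. Nanog went from 10561 ± 695 to 3140.4 ± 242 in p53KO-emiRFP and from 11341 ± 898 to 6863 ± 532 in WT-emiRFP cells (-1.03 ± 0.12, adjusted p = 2.4e-08), and Esrrb from 3396 to 2148 against 5013 to 6332 (-1.0 ± 0.13). For Nanog the means of both groups were therefore closer at 72 h than at 96 h.

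In the ribosome biogenesis and Myc list 18 of 31 genes had a lower change (24 with the replicate block, and 9, 5 and 7 without replicate 1, 2 and 3). All 18 were higher in every p53KO-emiRFP library than in every WT-emiRFP library at 72 h, and 2 were higher and 2 lower at 96 h. Myc went from 3204 ± 145 to 1772 ± 43.4 in p53KO-emiRFP and from 2018 ± 158 to 2537 ± 186 in WT-emiRFP cells (-1.18 ± 0.14, adjusted p = 8.5e-09), and Ddx21 from 45633 to 24944 against 34886 to 25293 (-0.41 ± 0.08). Of the Hox genes 11 of 37 had a lower change (16 with the replicate block, and 2, 1 and 11 without replicate 1, 2 and 3), and all 11 were higher in p53KO-emiRFP cells at 72 h in every library and 3 lower at 96 h. In the retinoic acid list this held for 4 of 14 genes (3 in each fit without 1 replicate), all 4 of them higher at 72 h. The p53 targets had a higher change in 14 of 32 cases and a lower one in 1 (13, 8 and 12 higher without replicate 1, 2 and 3), and all 14 were below WT-emiRFP cells at both times. Epithelial genes had a higher change in 5 of 12 cases (2, 3 and 3 without replicate 1, 2 and 3), and of these 5 genes 3 were below WT-emiRFP cells in every library at 72 h, while 4 were above and 1 below them at 96 h.

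Among the genes described above, singled out here after their values were seen, T went from 42853 ± 2119 to 41478 ± 3726 in p53KO-emiRFP and from 51830.5 ± 6454 to 23726 ± 2782 in WT-emiRFP cells (1.08 ± 0.25, adjusted p = 0.0021; adjusted p = 0.06 by DESeq2). The p53KO-emiRFP mean thus lay below the WT-emiRFP mean at 72 h and above it at 96 h. Eomes went from 2423 ± 313 to 299 ± 24.3 against 1329.7 ± 419 to 379 ± 24.4 (-1.21 ± 0.22, adjusted p = 7.1e-05), a higher level at 72 h in p53KO-emiRFP cells. Lfng, from 91.3 to 1216 against 63.8 to 2295 (-1.43 ± 0.31), and Lhx1, from 115 to 1172 against 85.01 to 2394 (-1.48 ± 0.27), rose less, the former with adjusted p = 0.05 and no call without replicate 2. Tbx6 went from 83.1 ± 12.9 to 5317 ± 913 against 75.7 ± 7.08 to 8904 ± 1011, and its difference (-0.87 ± 0.29, adjusted p = 0.037) was lost without any 1 replicate number (adjusted p = 0.08 to 0.23).

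Against the WT-mCherry cells of the same gastruloids, fewer genes differed. The WT-mCherry cells shared the mosaic but differed in genotype, in reporter clone and in seeded number (150 against 25 p53KO-emiRFP cells). The study also reports raised p53 protein and more apoptosis in WT-mCherry cells that have p53KO neighbours. These differences cannot be told apart in this comparison either. The change was higher in p53KO-emiRFP cells for 253 genes (1.20%) and lower for 274 (1.30%), with 321 and 214 under TMM scaling and 483 lower with the replicate block. Leaving out 1 replicate number at a time gave 62 to 125 higher and between 52 and 126 lower. Both comparisons use the same p53KO-emiRFP libraries and are therefore given side by side. Phlda3 differed by 2.31 (adjusted p = 8.7e-09) against WT-mCherry cells and by 2.22 against WT-emiRFP cells. Aldh1a2 differed by -1.91 (adjusted p = 3.8e-05) and -2.83, Nanog by -0.91 (adjusted p = 1.5e-06) and -1.03, and Myc by -0.82 (adjusted p = 9.2e-05) and -1.18. Hoxc8 (-1.33, adjusted p = 0.38), T (0.29, adjusted p = 0.71) and Ddx21 (-0.24, adjusted p = 0.099) did not pass against WT-mCherry cells. By list, 7 of 16 naive pluripotency genes had a lower change and 8 of 32 p53 targets a higher one than in WT-mCherry cells, against 1 of 31 ribosome biogenesis and Myc genes and 2 of 37 Hox genes that were lower. Lower changes were also found for 4 of 14 retinoic acid genes, and 0 of 12 epithelial genes differed.

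Over the whole course of p53KO-emiRFP cells, from 0 h (mES cells) to 144 h, the genes with the largest changes did not all move on in the same direction. Of the 12 strongest rises, 4 had their highest mean at 96 h (Msgn1, Fgf3, Sprr2a3 and Rspo3) and 8 at 120 h. Msgn1 went on from 4873 at 96 h to 1696 at 120 h and 76.6 at 144 h, whereas Hoxc8 went from 1774 to 5411 and 2800.2. Of the 12 strongest falls, 5 had their highest mean at 48 h and 5 at 72 h. Fgf5 had peaked at 48 h (3615) and stood at 44.3 at 120 h. Cxcl12 was the exception with a maximum at the end of the course, 10021 at 144 h against 539 at 96 h. These means were not tested against each other.

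**Figure D5:**
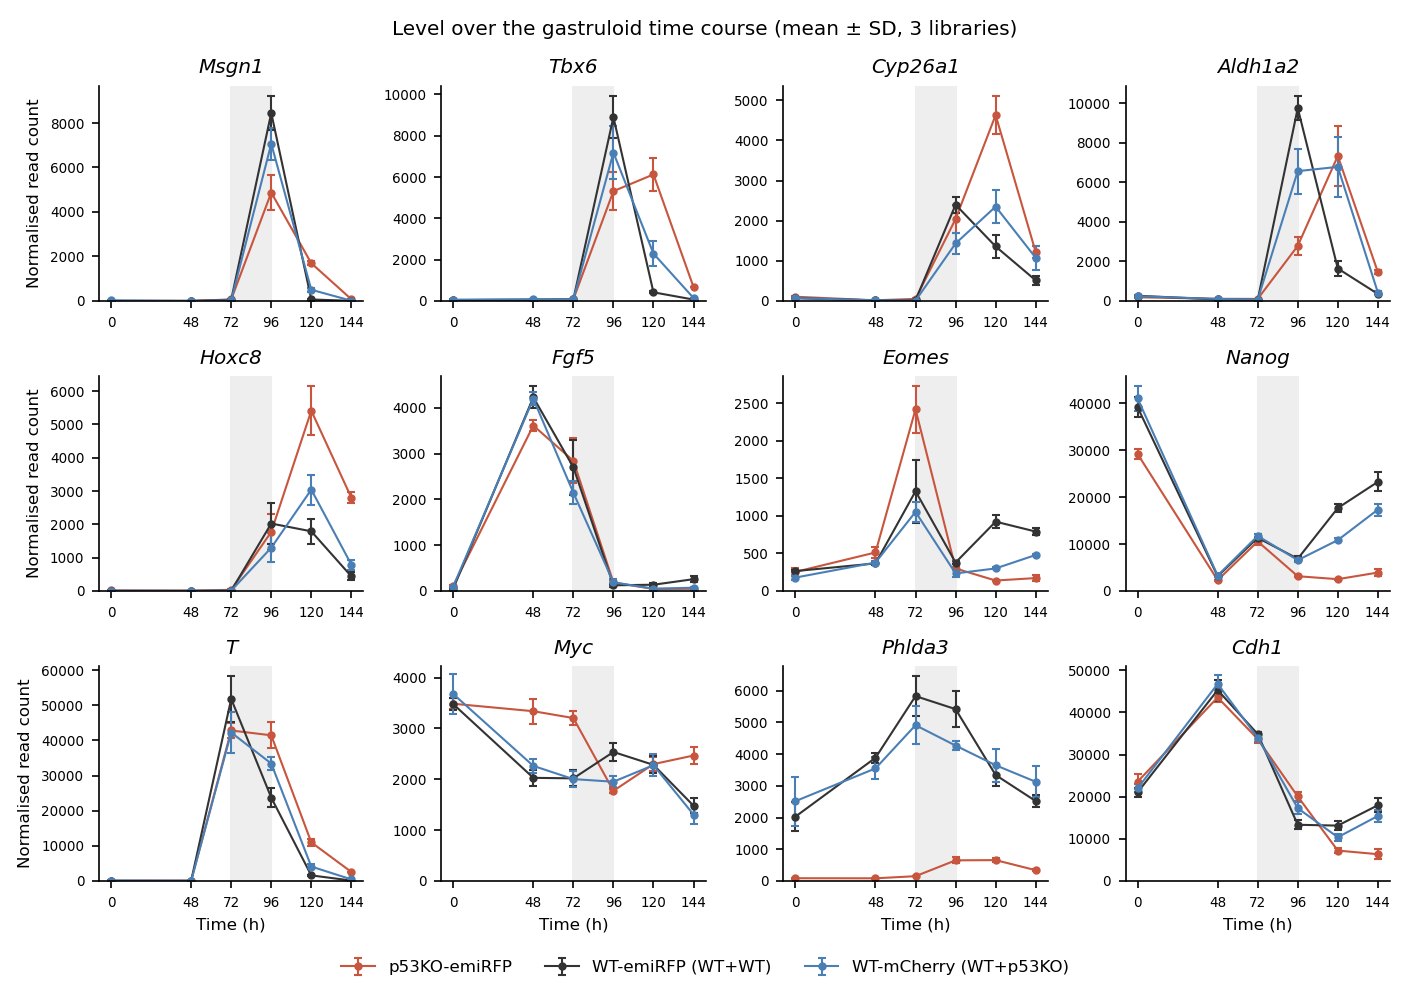
Normalised read counts (mean and SD of 3 libraries, linear axes that start at 0) from 0 h to 144 h for 12 genes in p53KO-emiRFP cells, WT-emiRFP cells of WT+WT gastruloids and WT-mCherry cells of WT+p53KO gastruloids. In p53KO-emiRFP cells Msgn1 peaks at 96 h and falls to 76.6 at 144 h, while Phlda3 stays below both WT groups at 72 h and 96 h.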

How the data were processed

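The authors deposited 1 table of raw gene counts (55367 gene symbols, 69 libraries in 23 groups of 3), made from strand-specific poly(A) libraries with Trim Galore 0.6.7 and STAR 2.7.11b (uniquely mapped reads, GRCm38.p6 with Gencode M25). Groups came from the sample labels. Counts were scaled by median-of-ratios size factors, filtered with filterByExpr and fitted with edgeR 4.0.16 (R 4.3.3) in 1 quasi-likelihood model of all 23 groups. Two-sided p-values were corrected over the 21132 tested genes (Benjamini-Hochberg) and read at 0.05. The standard error (SE) was the log2 fold change divided by the square root of F. Named genes were Trp53, the 12 largest rises and 12 largest falls (mean log2 CPM of at least 2, same direction in all 3 same-numbered pairs), up to 3 rises and 3 falls of each of 43 lists (580 genes) and the 6 largest differences from WT-emiRFP in each direction (mean log2 CPM of at least 2). Not every list member the rule selects is described, and 1 of the 12 largest rises is not reported here. Members, lists and rules were chosen with earlier results of these data known, and any other list member given with values was chosen after its values were seen. The study describes 3 experiments run at separate times, and same-numbered libraries deviated together (correlations of 0.13 to 0.30 between the p53KO-emiRFP groups and 0.12 to 0.51 over the pairs of groups examined, each with a p53KO-emiRFP group, 14106 genes), so the numbers pair the samples. The main model leaves this pairing out, and the replicate block takes it in. All replicates of a genotype and reporter come from 1 clone, so p-values measure the spread between these experiments and not between clones. On simulated data, 95.5% of 200 genes changed 2-fold were called for 96 h against 72 h and 88% for the difference from WT-emiRFP (20955 genes), with 4.98% and 3.83% of calls on unchanged genes. In that simulation no other gene changed between 72 h and 96 h in p53KO-emiRFP or WT-emiRFP cells. The changed genes were drawn above a minimum level and the libraries without pairing. These rates need not hold for the real data, in which far more genes changed. Alternatives were TMM scaling, no filter, a replicate block, only the groups compared, DESeq2 1.42.0, a minimum change of 2-fold and leaving out each replicate.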

Additional observations from a re-analysis of the deposited data

Results flagged for a closer look

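The results below are those in which the change from 72 h to 96 h differed between p53KO-emiRFP cells of WT+p53KO gastruloids and WT-emiRFP cells of WT+WT gastruloids in a test of the difference itself (edgeR quasi-likelihood test). In all, 1166 genes had a higher and 1167 a lower change in p53KO-emiRFP cells. A higher or lower change is relative to WT-emiRFP cells and need not be a rise or a fall. Pim2, with a higher change, had log2 fold changes of -2.29 in p53KO-emiRFP and -3.45 in WT-emiRFP cells. For Aldh1a2, with a lower change, they were 4.76 and 7.59. Differences are given on the log2 scale for 38 genes. They are the 6 largest in each direction among genes averaging 2 log2 CPM or more and 26 chosen after their values were seen. Other genes named in the text differed too. Of the 38, those with a higher change were Phlda3 (2.22), Parp10 (1.95), Trp53i11 (1.73), Azin2 (1.71), Gnal (1.71), CT010467.2 (1.65), T (1.08), Enpp2 (1.29), Slc27a2 (0.898), Pim2 (1.16), Sprr2a3 (1.21), Btg2 (1.26), Bbc3 (1.07), Mdm2 (0.548), Cdh1 (0.638), Cldn7 (0.785), Ddit4 (1.05) and Wnt10a (1.77). They include p53 target genes (Phlda3, Btg2, Bbc3 and Mdm2) and epithelial genes (Cdh1 and Cldn7). Against WT-mCherry cells of the same gastruloids, the differences of Phlda3 and Btg2 also passed. Those of Bbc3 (0.62, adjusted p = 0.14), Mdm2 (0.37, adjusted p = 0.059), Cdh1 (0.23, adjusted p = 0.50) and Cldn7 (0.02, adjusted p = 0.99) did not.

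Those with a lower change were Aldh1a2 (-2.83), Hoxd9 (-2.57), Hoxc8 (-2.48), Pcdh19 (-2.20), Crabp1 (-2.12), Hoxa9 (-1.98), Cyp26a1 (-1.92), Tbx6 (-0.873), Lfng (-1.43), Eomes (-1.21), Tgfbr3 (-0.774), Nanog (-1.03), Esrrb (-0.996), Dppa3 (-1.15), Tcl1 (-1.24), Lhx1 (-1.48), Myc (-1.18), Ddx21 (-0.407), Heatr1 (-0.510) and Lefty2 (-1.70). This group holds Hox genes, retinoic acid genes, naive pluripotency genes and genes for ribosome production. When 1 replicate number was left out at a time, the difference lost its call in at least 1 fit for CT010467.2, Cldn7, Cyp26a1, Gnal, Heatr1, Hoxa9, Hoxc8, Lfng, Pim2, Sprr2a3, Tbx6 and Wnt10a. It was also lost by DESeq2 for Sprr2a3 (adjusted p = 0.35) and T (adjusted p = 0.064), and with only the groups compared in the fit for CT010467.2 (adjusted p = 0.14), Hoxc8 (adjusted p = 0.052) and Hoxa9 (adjusted p = 0.054). Genotype, seeding number and neighbours differ together between these groups and cannot be told apart.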

How the results depend on the processing

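For 96 h against 72 h in p53KO-emiRFP cells, TMM scaling, no low-count filter, the replicate block (5056 higher and 5121 lower), fitting only the groups compared and DESeq2 left the counts within 1.5 times of 4730 and 4684, as did leaving out replicates (3735 to 4425 and 3428 to 4275). Calling only changes of at least 2-fold gave 1754 and 733. For the difference from WT-emiRFP, counts without 1 replicate were 425 to 639 higher and 404 to 664 lower, the 2-fold minimum gave 229 and 299, and the block gave 1805 lower. For the difference from WT-mCherry, counts without 1 replicate were 62 to 125 higher and 52 to 126 lower, the 2-fold minimum gave 66 and 88, fitting only the groups compared gave 434 higher, and the block gave 483 lower. The block retained 4729 of the 4730 rises, 4681 of the 4684 falls and all differences. Trp53, which was not called, had a log2 fold change of 0.0244 under TMM, 0.00278 with the block, 0.00862 with only the groups compared, and between -0.0664 and 0.0839 without single replicates. CT010467.2 ranged from -0.214 to 0.0560 without single replicates and turned direction without replicate 3 at both times or at 72 h (0.0343). Of 2837 recomputed gene changes 2726 stayed on their side of the threshold, 103 lost their call and 8 turned direction. The cause was not tested.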

Other observations

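Some lists described cells or states that were not part of the lineages above. Germ cell genes rose in 7 of 10 cases and fell in 2 (median 1.05), among them Prdm1 (109.7 to 299.9 normalised counts, log2 fold change 1.46 ± 0.15) and Nanos3 (25.8 to 63.4, 1.31 ± 0.24), and the falls of Dazl and Ddx4 were lost without replicate 3 (adjusted p = 0.06 for both). Haematoendothelial genes were split, with 5 rises and 5 falls of 17 (median -0.05). The endothelial cadherin Cdh5 rose from 4.60 to 51.5 (3.49 ± 0.50) and the receptor gene Tie1 from 2.52 to 20.2 (3.01 ± 0.48), while the blood regulator Gata1 fell from 33.9 to 8.05 (-2.07 ± 0.27). Of 8 tested two-cell-like genes, which mark a rare state of mES cells, the 6 Zscan4 copies fell, and none was called without replicate 2. These copies are near-identical, so their counts are uncertain.

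Markers of cells that the culture should lack are given here as sums, beside those of feeder or fibroblast genes given above, which were higher at 96 h. Summed over 10 extraembryonic endoderm genes, normalised counts were 2234 to 2439 at 72 h and 4570 to 5657 at 96 h, and Lama1, a laminin also made by the epiblast and its derivatives, rose from 802 to 3788 (2.24 ± 0.22). Of the 9 tested members Lama1 was the only rise, 2 fell and 6 did not pass. With no filter on low counts, or with only these 2 groups in the fit, 2 rose. The sum of 7 trophoblast genes was 103.7 to 132.5 at 72 h and 112.8 to 123.0 at 96 h. The sum of 4 blood genes was 29.3 to 38.6 and 6.15 to 10.3, nearly all of it from Gata1, whose fall is given above. Mitochondrially encoded transcripts summed to 422643 to 490883 at 72 h and 553423 to 764481 at 96 h, and the number of them called higher was 2 of 13, ranging from 0 to 8 over the alternatives. Immediate early and heat shock genes, which respond to cell dissociation, summed to 9125 to 11099.8 at 72 h and 8951 to 9704 at 96 h, and 2 of 11 fell (1 to 6 over the alternatives).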
